A study of Mus musculus with 4 samples.

Results

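The Wnt signalling genes described here are 44 mouse gene symbols, chosen by name from 36846 symbols in the deposited transcript table: 19 Wnt ligands, 10 Frizzled receptors, the co-receptors Lrp5 and Lrp6, 6 secreted inhibitors that bind Wnt proteins (Sfrp1, Sfrp2, Sfrp4, Sfrp5, Frzb and Wif1), 4 Dickkopf inhibitors (Dkk1 to Dkk4), the nuclear factors Lef1 and Tcf7, and the feedback gene Axin2. RNA came from mouse embryonic fibroblasts (MEFs), connective tissue cells grown from embryos of day 13.5 to 14.5 and sequenced at passage 4. The wild type group (WT) and the Dnmt3l-KO group held 2 libraries each; the cell lines of both were on the C57BL/6 (B6) strain and came from crosses between Dnmt3l+/- mice. The study used these fibroblasts as donor cells for somatic cell nuclear transfer and looked for genes that differ between the genotypes. The labels give neither the sex nor whether a genotype's libraries came from separate embryos or lines, so p-values measure only how far these libraries differ, and some of that may be technical.

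Wnt proteins are secreted lipid-modified signals. In the canonical branch a Wnt bound to a Frizzled receptor and to Lrp5 or Lrp6 stops the destruction of beta-catenin, which then enters the nucleus and works with Tcf and Lef factors on target genes such as Axin2. Wnt5a and related ligands also act through beta-catenin independent receptors that steer cell shape and polarity, and mesenchymal cells are a known source of both ligands and secreted inhibitors. Dnmt3l, the gene removed, encodes an inactive relative of DNA methyltransferases that assists those adding new methyl groups.

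Total estimated counts ranged from 40681328 to 51465395 per library. Dnmt3l itself held 6 counts and 1 count in WT and 0 in both Dnmt3l-KO libraries, which lies around a floor of 3 counts per library and does not check the genotype labels. All 9 fibroblast markers looked up (among them Col1a1, Col1a2, Pdgfra and Vim) were expressed, while the defining markers of epithelium (Epcam, Cdh1) and endothelium (Pecam1, Cdh5) stayed at or below 0.241 CPM, counts scaled to the TMM-adjusted library size. The summed level of the fibroblast markers was 12223 and 10784 CPM in WT, 10347 CPM in Dnmt3l-KO replicate 1 and 15548 CPM in Dnmt3l-KO replicate 2. For 8 of those 9 markers, all but Vim, Dnmt3l-KO replicate 1 was the lowest and Dnmt3l-KO replicate 2 the highest of the 4 libraries, so the Dnmt3l-KO libraries were further apart than the WT libraries. Endothelial markers summed to 7.50 and 9.47 in WT against 18.6 and 5.98 CPM in Dnmt3l-KO, most of it Kdr, and macrophage and leukocyte markers to between 7.24 and 10.5 CPM. Epithelial markers summed to between 3.97 and 7.62 CPM, most of it Krt18, skeletal muscle markers to between 16.2 and 27.2 CPM, most of it Des, and neural markers, most of them Nes and Tubb3, to between 109.8 and 155.0 CPM. Chondrocyte markers, most of them Col2a1, summed to between 247.5 and 340.9 CPM.

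The promoters of Axin2, Wnt16 and Sfrp2 are shown because, of the tested members with an entry, these had the widest ranges of CPM over the 4 libraries (4.39-fold, 3.83-fold and 3.13-fold, chosen after their values were seen). Each window is the 250 bases before a transcript start in RefSeq (GRCm38.p6, the same build as mm10, which the submitters' processing notes name), with every CpG dinucleotide, the site of DNA methylation, in capitals. Axin2 is at chr11:108920099-108920348, Wnt16 at chr6:22287977-22288226 and Sfrp2 at chr3:83766071-83766320, all on the plus strand. The RefSeq gene spans start at 108917828 for Axin2, 22288178 for Wnt16 and 83765750 for Sfrp2. The Axin2 and Sfrp2 windows thus lie inside their gene spans, and the Wnt16 window reaches past the start of its span.
Axin2: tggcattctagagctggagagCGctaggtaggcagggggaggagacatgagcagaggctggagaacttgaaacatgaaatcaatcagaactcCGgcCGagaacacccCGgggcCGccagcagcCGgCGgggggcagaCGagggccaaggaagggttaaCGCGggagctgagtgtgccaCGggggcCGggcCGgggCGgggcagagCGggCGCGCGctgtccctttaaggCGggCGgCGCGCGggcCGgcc
Wnt16: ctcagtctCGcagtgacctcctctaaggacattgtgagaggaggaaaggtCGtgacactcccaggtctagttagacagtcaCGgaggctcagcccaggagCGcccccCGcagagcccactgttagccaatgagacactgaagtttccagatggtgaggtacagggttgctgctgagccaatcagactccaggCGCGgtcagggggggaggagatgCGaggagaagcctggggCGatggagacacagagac
Sfrp2: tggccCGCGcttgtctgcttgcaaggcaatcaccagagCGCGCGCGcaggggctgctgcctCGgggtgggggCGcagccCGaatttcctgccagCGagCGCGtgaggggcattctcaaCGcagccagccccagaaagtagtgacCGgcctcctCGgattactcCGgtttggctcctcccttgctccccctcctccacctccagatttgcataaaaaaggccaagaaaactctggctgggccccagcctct
The windows held 24 CpGs in Axin2, 9 in Wnt16 and 16 in Sfrp2, against a median of 6 over 32851 windows of this length and of 20 over the 37 windows of the 30 members with an entry. The core CTTTGA recognised by Tcf and Lef proteins, searched on both strands, was present in 6 of the 37 member windows (16.2%) and in 13.8% of all windows. The window before an internal start of Lef1, chr3:131156044-131156293 on the plus strand, is shown because it held 2 matches, which are in capitals as TCAAAG, the core read on the other strand; Dkk1 also had 2, and Frzb, Fzd1, Wnt5b and Wnt11 had 1 each.
Lef1: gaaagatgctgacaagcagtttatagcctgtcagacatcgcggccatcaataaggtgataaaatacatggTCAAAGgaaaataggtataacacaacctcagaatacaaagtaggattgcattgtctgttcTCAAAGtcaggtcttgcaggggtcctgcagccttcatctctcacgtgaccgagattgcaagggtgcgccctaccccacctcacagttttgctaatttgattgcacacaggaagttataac
DNA methylation and factor binding were not measured here, and a match is a description of these letters only.

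Which Wnt genes the fibroblasts transcribed was read from FPKM, which is scaled to transcript length and so allows levels of different genes to be compared. Of the 44 members, 7 had a mean above 10 FPKM over the 4 libraries, 16 lay between 1 and 10 FPKM, and 9 lay below 1 FPKM but passed the filter on low counts. The other 12 members did not pass it and were not tested. Dkk4, Sfrp5 and Wnt3a had 0 counts in all 4 libraries. Wnt1, Wnt8a, Wnt8b and Wnt9b reached 1 count in a single library. Wnt3, Wnt6, Wnt7b, Dkk1 and Sfrp4 had at most 14 counts in any library. The plot of FPKM by library shows the order within each class.

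**Figure D1:**
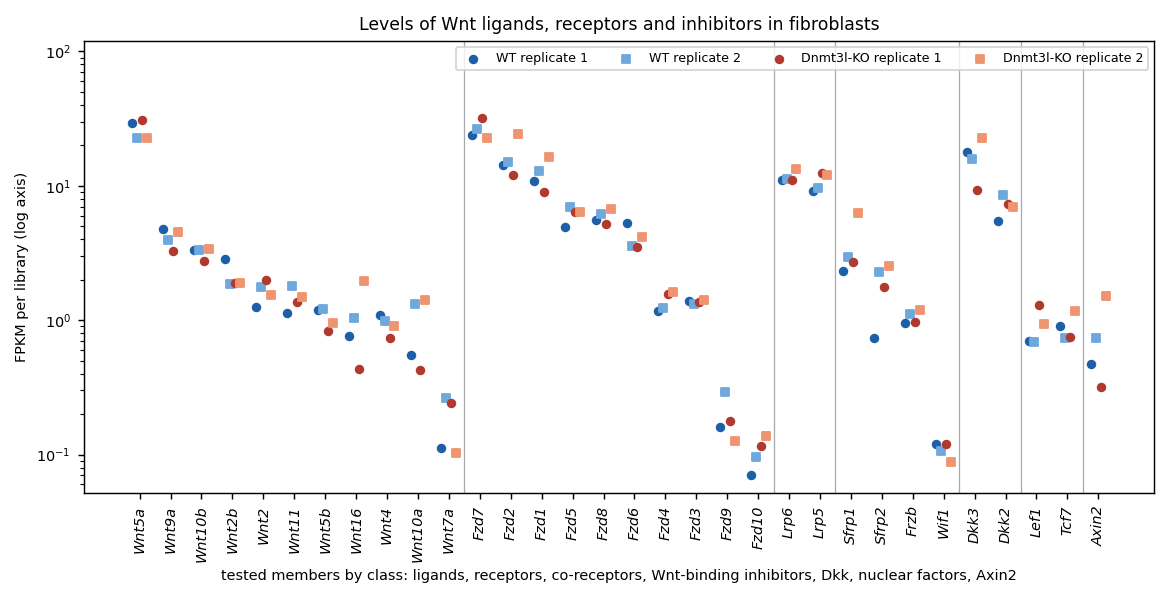
FPKM of the 32 tested members in each library on a log axis, ordered by class and mean level. Wnt5a led the ligands at 22.7 to 31.0 FPKM and Fzd7 the receptors at 22.8 to 32.2 FPKM; Axin2 spread from 0.320 to 1.52 FPKM.

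Wnt5a was the leading ligand. It encodes the ligand best known for beta-catenin independent signalling and lies on chromosome 14 (28504543 to 28527448, GRCm38). Its level was 29.3 and 22.7 in WT against 31.0 and 22.7 FPKM in Dnmt3l-KO. The next ligand, Wnt9a, had 4.75 and 3.94 in WT against 3.29 and 4.54 FPKM in Dnmt3l-KO, so the lowest Wnt5a library lay far above the highest Wnt9a library. Wnt10b followed at 3.30 and 3.35 in WT against 2.74 and 3.38 FPKM in Dnmt3l-KO. Its range met that of Wnt9a, but within each of the 4 libraries Wnt9a was the higher. Lower ligands included Wnt2b at 2.87 and 1.86 in WT against 1.91 and 1.88 FPKM in Dnmt3l-KO, Wnt2 at 1.25 and 1.76 in WT against 1.996 and 1.54 FPKM in Dnmt3l-KO, and Wnt11 at between 1.13 and 1.801 FPKM. Wnt2 overlapped both of the others, and all libraries of Wnt2b lay above those of Wnt11. Wnt5b, Wnt16, Wnt4 and Wnt10a ranged between 0.424 and 1.94 FPKM and overlapped each other. Wnt7a, known from the nervous system and limb, was lowest of the tested ligands at 0.111 and 0.263 in WT against 0.241 and 0.103 FPKM in Dnmt3l-KO. The 19 ligands together summed to 185 ± 36.1 in WT against 175 ± 25.5 CPM in Dnmt3l-KO (n = 2 each, mean ± SD), most of it Wnt5a.

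Among the Frizzled receptors, the seven-pass membrane receptors of Wnt proteins, Fzd7 stood first. Fzd7 (chromosome 1, 59482147 to 59486955) had 23.9 and 26.6 in WT against 32.2 and 22.8 FPKM in Dnmt3l-KO. Fzd2 had 14.3 and 15.0 in WT against 12.0 and 24.2 FPKM in Dnmt3l-KO, and Fzd1 had 10.8 and 12.9 in WT against 8.97 and 16.4 FPKM in Dnmt3l-KO. Fzd7 and Fzd2 met only through Dnmt3l-KO replicate 2, where Fzd2 lay above Fzd7. Fzd5 had 4.91 and 6.93 in WT against 6.37 and 6.42 FPKM in Dnmt3l-KO, Fzd8 had 5.52 and 6.21 in WT against 5.16 and 6.75 FPKM in Dnmt3l-KO, and Fzd6 had 5.29 and 3.54 in WT against 3.49 and 4.16 FPKM in Dnmt3l-KO. The ranges of these 3 receptors overlapped. Fzd3, which is known for axon guidance and tissue polarity, had 1.398 and 1.33 in WT against 1.36 and 1.402 FPKM in Dnmt3l-KO, within the range of Fzd4 (1.17 to 1.63 FPKM). Fzd9 had 0.160 and 0.291 in WT against 0.177 and 0.126 FPKM in Dnmt3l-KO, and Fzd10 stayed at or below 0.137 FPKM. The co-receptors, single-pass receptors that both contact the Wnt-Frizzled complex, were at similar levels: Lrp6 at 11.1 and 11.2 in WT against 11.1 and 13.4 FPKM in Dnmt3l-KO, and Lrp5 at 9.09 and 9.63 in WT against 12.5 and 12.1 FPKM in Dnmt3l-KO.

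Among the genes classed here as secreted inhibitors, the Dickkopf genes Dkk3 and Dkk2 had the highest mean levels. Dkk3, the divergent member of the Dickkopf family, had 17.8 and 15.8 in WT against 9.24 and 22.7 FPKM in Dnmt3l-KO. Dkk2, which binds Lrp5 and Lrp6, had 5.48 and 8.60 in WT against 7.35 and 6.90 FPKM in Dnmt3l-KO, while Dkk1, its better known relative, held only 9 and 4 in WT against 9 and 0 counts in Dnmt3l-KO. Of the inhibitors that bind Wnt proteins, Sfrp1 was highest at 2.34 and 2.96 in WT against 2.69 and 6.26 FPKM in Dnmt3l-KO. Sfrp2 overlapped Frzb, also named Sfrp3, which had 0.954 and 1.104 in WT against 0.974 and 1.19 FPKM in Dnmt3l-KO. Wif1, a secreted inhibitor unrelated to Frizzled, had 0.120 and 0.107 in WT against 0.119 and 0.0887 FPKM in Dnmt3l-KO. The nuclear factors Lef1 and Tcf7 were low in every library, between 0.689 and 1.30 FPKM and between 0.731 and 1.17 FPKM.

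The question of the study was whether genes differ between the genotypes. No Wnt ligand, receptor, inhibitor or nuclear factor passed that test. In edgeR's quasi-likelihood test on the counts, 0 of the 32 tested members passed at an adjusted p of 0.05, where 0.0203% of the 14760 genes tested did, and every member had an adjusted p of 0.999. At an unadjusted p under 0.05 there was 1 member, Lrp5, against 4.15% of all genes. DESeq2's Wald test also called 0 of the 37 members it gave an adjusted p (0.166% of all genes). It had 2 at an unadjusted p under 0.05 (Lrp5 and Sfrp1, against 1.97% of all genes). In limma-voom 0 of 32 were called and 1 was at that level, where no share over all genes was taken. Log2 fold changes, given as Dnmt3l-KO minus WT throughout, were positive in 16 of the 32 members, against 51.3% of all genes, and negative in 16. Their median was 0.0099, against 0.0062 over all genes tested, and the median absolute value was 0.17 against 0.13.

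**Figure D2:**
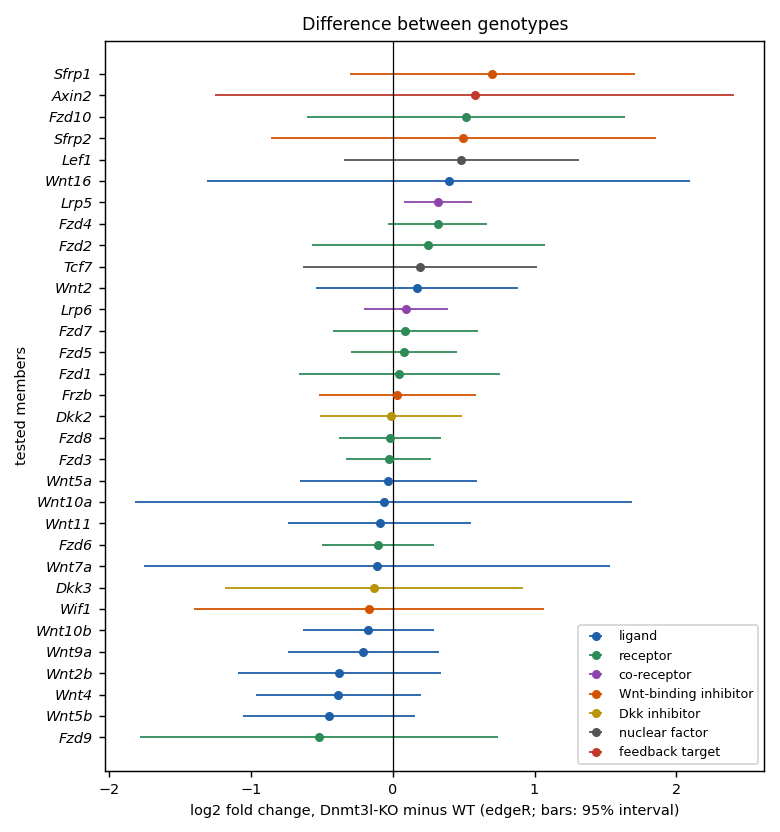
Log2 fold change (Dnmt3l-KO minus WT, edgeR) of the 32 tested members with 95% intervals, coloured by class. All intervals but that of Lrp5 reach 0, and the intervals of Axin2, Wnt10a, Wnt16 and Wnt7a are the widest.

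The precision differed among members. Standard errors of the log2 fold changes ran from 0.094 (Lrp5) to 0.71 (Axin2), with a median of 0.26. The 95% interval lay within 1 log2 unit on either side of 0 for 17 members, so a change of more than 2-fold in either direction lay outside the interval for those only. For Wnt5a the interval ran from -0.66 to 0.59, for Fzd7 from -0.42 to 0.60, and for Lrp6 from -0.21 to 0.39. For Axin2 it ran from -1.25 to 2.41, which leaves a large change in either direction within the error. In whole cultures, fewer cells that make an RNA and less of it per cell cannot be told apart.

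In 5 of the 32 members the genotypes did not overlap. Both Dnmt3l-KO libraries lay above both WT libraries in Lrp5, Fzd4 and Fzd10, where 16.2% of all genes did so, and below them in Wnt5b and Wnt4, where 16.5% did so. Neither count of members exceeded its background share, and none of the 5 passed the test.

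Lrp5 (chromosome 19, 3584825 to 3686585) had 52.1 and 51.9 in WT against 67.4 and 62.1 CPM in Dnmt3l-KO. The WT libraries nearly coincided and both Dnmt3l-KO libraries lay above them. The log2 fold change was 0.32 ± 0.09 (SE; edgeR, unadjusted p = 0.0197, adjusted p = 0.999), and it ranged from 0.26 to 0.37 with each library left out in turn. Fzd4, the receptor also known for its ligand Norrin in retinal vessels, had 7.60 and 7.26 in WT against 9.26 CPM in both Dnmt3l-KO libraries, and the log2 fold change was 0.32 ± 0.14 (SE; edgeR, unadjusted p = 0.0672, adjusted p = 0.999). Fzd10 had 12 and 13 in WT against 19 and 18 counts in Dnmt3l-KO, a difference of a few counts (log2 fold change 0.52 ± 0.44, SE; edgeR, unadjusted p = 0.292, adjusted p = 0.999).

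Wnt5b, a close relative of Wnt5a, had 2.99 and 2.76 in WT against 1.98 and 2.22 CPM in Dnmt3l-KO, for a log2 difference of -0.45 ± 0.24 (SE; edgeR, unadjusted p = 0.115, adjusted p = 0.999). Wnt4, known for its part in kidney and gonad formation, had 4.90 and 3.98 in WT against 3.13 and 3.68 CPM in Dnmt3l-KO, for a log2 difference of -0.38 ± 0.23 (SE; edgeR, unadjusted p = 0.150, adjusted p = 0.999). Both kept a negative value in each of the other settings tried. Of the 11 tested ligands, 9 had a negative log2 fold change, where 51.3% of all genes had a positive one. The median was -0.11 over the 11, and their range ran from -0.45 in Wnt5b to 0.39 in Wnt16. Of the negative ligands only Wnt5b, Wnt4 and Wnt10b kept their sign with each library left out in turn. Wnt9a, Wnt2b, Wnt11, Wnt5a, Wnt7a and Wnt10a turned positive in some of these fits, and the positive ligands Wnt16 and Wnt2 turned negative in some. Wnt5a, which made up most ligand RNA, had a log2 fold change of -0.03 ± 0.24 (SE; edgeR, unadjusted p = 0.902, adjusted p = 0.999), and the 2 ligands were not tested against each other.

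Wnt5a itself differed within the genotypes more than between them. It had 154.1 and 109.2 in WT against 151.2 and 106.4 CPM in Dnmt3l-KO. Replicate 1 was the higher library in each genotype, and the genotype means of 132 ± 31.7 and 129 ± 31.7 CPM (SD, n = 2 each) almost coincided. Fzd7 had 134.6 and 137.0 in WT against 171.9 and 117.0 CPM in Dnmt3l-KO, so the Dnmt3l-KO libraries lay on either side of the WT pair (log2 fold change 0.09 ± 0.20, SE; edgeR, unadjusted p = 0.670, adjusted p = 0.999). For Lrp6 the 4 libraries lay within 1.20-fold of each other, from 110.1 to 131.9 CPM, and for Fzd3 within 1.15-fold, which makes them the steadiest tested members along with Frzb (1.17-fold). The log2 fold change of Lrp6 was 0.09 ± 0.12 (SE; edgeR, unadjusted p = 0.470, adjusted p = 0.999).

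**Figure D3:**
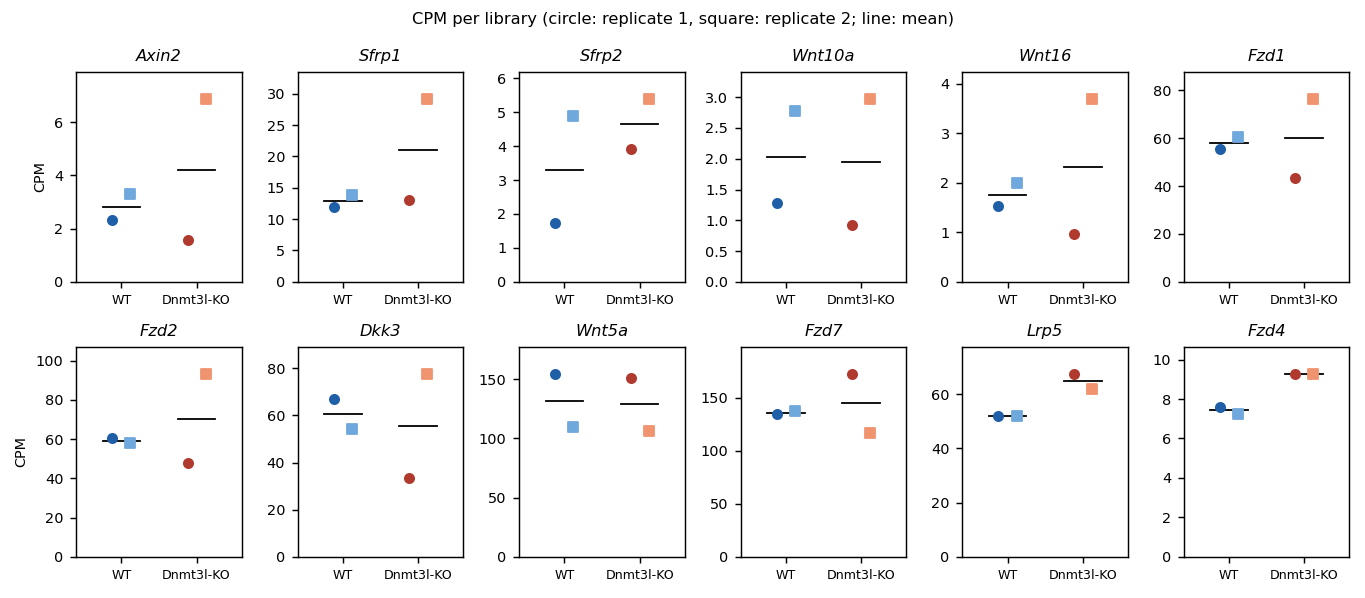
CPM per library for 12 members, with the mean of each genotype as a line; each panel starts at 0. In Axin2, Sfrp1, Wnt16, Fzd1, Fzd2 and Dkk3 the Dnmt3l-KO libraries lie further apart than the WT libraries, with replicate 2 the highest of the 4, while the Lrp5 and Fzd4 libraries of a genotype lie close together.

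Among the 32 tested members the largest spread was in Axin2, the negative regulator that is itself switched on by beta-catenin and so is widely used as a reporter of the canonical branch. Axin2 (chromosome 11, 108917828 to 108950783) had 2.31 and 3.31 in WT against 1.56 and 6.86 CPM in Dnmt3l-KO, from 109, 138, 78 and 287 counts. The Dnmt3l-KO libraries were the lowest and the highest of the 4 and were 4.39-fold apart. The log2 fold change was 0.58 ± 0.71 (SE; edgeR, unadjusted p = 0.451, adjusted p = 0.999). It was -0.84 without Dnmt3l-KO replicate 2 and 1.29 without Dnmt3l-KO replicate 1, so its direction was set by which of these libraries was used.

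Sfrp1, a secreted protein that binds Wnt ligands through a Frizzled-like domain, had the largest positive log2 fold change. It had 12.0 and 13.9 in WT against 13.0 and 29.1 CPM in Dnmt3l-KO. Only Dnmt3l-KO replicate 2 lay outside the WT range. The log2 fold change was 0.70 ± 0.39 (SE; edgeR, unadjusted p = 0.132, adjusted p = 0.999), and it was 0.011 without Dnmt3l-KO replicate 2. Its relative Sfrp2 had 1.72 and 4.89 in WT against 3.93 and 5.38 CPM in Dnmt3l-KO, with replicate 2 higher in both genotypes and a log2 fold change of 0.50 ± 0.52 (SE; edgeR, unadjusted p = 0.388, adjusted p = 0.999). It was -0.07 without WT replicate 1 and 1.43 without WT replicate 2, so its direction was set by the WT library used. Together the 6 inhibitors that bind Wnt proteins summed to 17.4 and 22.5 in WT against 20.5 and 38.7 CPM in Dnmt3l-KO (exact permutation test over libraries, two-sided, p = 0.667, where 0.333 is the smallest p the design allows).

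Other members also had their highest value in Dnmt3l-KO replicate 2. Wnt16, a ligand known from bone and joint, had 1.53 and 1.99 in WT against 0.962 and 3.68 CPM in Dnmt3l-KO, and Wnt10a, a ligand known from teeth and skin, had 1.27 and 2.78 in WT against 0.922 and 2.97 CPM in Dnmt3l-KO. In both, replicate 2 was the higher library of each genotype, as in Axin2, Sfrp1 and Sfrp2. The log2 fold change of Wnt16 was 0.39 ± 0.66 (SE), and it was -0.87 without Dnmt3l-KO replicate 2. Fzd2 had 60.3 and 57.9 in WT against 47.9 and 93.0 CPM in Dnmt3l-KO. Fzd1 had 55.4 and 60.4 in WT against 43.5 and 76.2 CPM in Dnmt3l-KO. For Dkk3 the values were 67.1 and 54.3 in WT against 33.3 and 77.5 CPM in Dnmt3l-KO. In these 3 genes the Dnmt3l-KO libraries bracket the WT libraries. Their log2 fold changes were 0.25 ± 0.32, 0.05 ± 0.27 and -0.13 ± 0.41 in that order (SE; edgeR, unadjusted p = 0.464, 0.871 and 0.755, adjusted p = 0.999 each). Without Dnmt3l-KO replicate 2 they were -0.31, -0.41 and -0.87, and without Dnmt3l-KO replicate 1 they were 0.65, 0.40 and 0.35. Dkk2 had a log2 fold change of -0.01 ± 0.19 (SE; edgeR, unadjusted p = 0.951, adjusted p = 0.999).

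In all, 13 of the 32 tested members (40.6%) were highest in Dnmt3l-KO replicate 2, against 28.9% of all genes, and 12 (37.5%) were lowest in Dnmt3l-KO replicate 1, against 30.7% of all genes. Not all members did so: Wnt5a and Fzd7, the 2 with the highest FPKM, were lowest in Dnmt3l-KO replicate 2, at 106.4 and 117.0 CPM. Of the 9 fibroblast markers, all but Vim were highest in Dnmt3l-KO replicate 2 and lowest in Dnmt3l-KO replicate 1. Col1a1 had 4320 and 3405 in WT against 3206 and 5891 CPM in Dnmt3l-KO. Pdgfra had 23.4 and 38.6 in WT against 17.2 and 65.4 CPM in Dnmt3l-KO. Lum had 1.19 and 2.54 in WT against 0.421 and 9.38 CPM in Dnmt3l-KO. Vim had 4045 and 4326 in WT against 4667 and 4356 CPM in Dnmt3l-KO. The part of the markers in the spread of the Wnt genes was not tested. The labels do not say that a replicate number marks a shared embryo, litter or day.

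The nuclear factors and the smaller classes gave no call either. Lef1 had 2.95 and 2.47 in WT against 4.75 and 2.82 CPM in Dnmt3l-KO, and the log2 fold change was 0.48 ± 0.32 (SE; edgeR, unadjusted p = 0.195, adjusted p = 0.999). It was 0.057 without Dnmt3l-KO replicate 1. Tcf7 had 3.12 and 2.25 in WT against 2.44 and 3.71 CPM in Dnmt3l-KO, with overlapping genotypes (log2 fold change 0.19 ± 0.32, SE; edgeR, unadjusted p = 0.578, adjusted p = 0.999). The 10 receptors summed to 360 and 370 in WT against 376 and 403 CPM in Dnmt3l-KO, and the co-receptors to 172.7 and 161.9 in WT against 181.1 and 194.0 CPM in Dnmt3l-KO. In these classes and in the nuclear factors the summed level of both Dnmt3l-KO libraries lay above WT (exact permutation test, two-sided, p = 0.333 each, the smallest the design allows). The Dickkopf genes summed to 91.0 and 88.4 in WT against 63.6 and 104.6 CPM in Dnmt3l-KO, with the Dnmt3l-KO libraries on either side (exact permutation p = 1).

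At the level of transcripts, 26 of the 44 members had more than 1 RefSeq transcript, and 0 of the 67 member transcripts tested passed in edgeR and none (0) had an unadjusted p under 0.05, where 4.12% of the 39633 transcripts tested reached that level and 0.00252% passed. Wnt5a was spread over 6 transcripts, of which variant 2 took 38.3% and 36.8% of its counts in WT against 41.2% and 38.7% in Dnmt3l-KO, and variant 1 took 20.5% and 23.7% in WT against 24.5% and 27.3% in Dnmt3l-KO. These shares moved little between libraries, while that of variant X4 was 26.1% and 24.9% in WT against 22.6% and 14.0% in Dnmt3l-KO. The shares of Lef1 moved more: variant 1 took 99 of 139 counts in WT replicate 1 and 9 of 103 in WT replicate 2, and 137 of 237 and 1 of 118 in the Dnmt3l-KO libraries. Axin2 varied likewise, with its curated transcript at 84.4% and 40.6% in WT against 35.9% and 66.6% in Dnmt3l-KO. The sources used here do not say how reads shared by transcripts were divided, so such shares of low genes describe that estimate. In the authors' deposited table, the member transcript with the smallest adjusted p was Dkk3 variant X1, at an adjusted p of 0.732 for a log2 value of -0.68. Its counts were 612 and 634 in WT against 270 and 404 in Dnmt3l-KO, while the main Dkk3 transcript had 2282 and 1439 in WT against 1275 and 2532 in Dnmt3l-KO.

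The rest of the Wnt pathway was read from a list of 73 further genes, of which 66 were tested. In edgeR 0 of the 66 passed, and 6 were at an unadjusted p under 0.05, all of them higher in Dnmt3l-KO, where 2.34% of all genes reached that level in that direction and 1.81% in the other. DESeq2's Wald test called 0 with 5 at that level, where 1.97% of all genes reached it in either direction. In limma-voom 0 were called with 5 at that level, and in limma on log2(FPKM + 1) 0 with 3. For the limma fits no share over all genes was taken, so these counts have no background beside them. Log2 fold changes were positive in 6 of 7 genes of the R-spondin arm, 12 of 16 of beta-catenin and its destruction complex, 11 of 13 of the polarity branch, 6 of 7 known targets and 4 of 11 other inhibitors, where 51.3% of all genes were positive. These lists share genes: the known targets include Lgr5, also in the R-spondin arm, and Nkd1, also among the other inhibitors, both positive. In all these lists but beta-catenin and its destruction complex, the count fell furthest without Dnmt3l-KO replicate 2. Without it, positive values numbered 2 of 7, 11 of 16, 4 of 13, 2 of 7 and 2 of 11 in the same order. They numbered 34 in place of 50 of all 66 genes, against 47.96% of all genes. Other omissions also moved the counts. Without WT replicate 1, 8 of 13 polarity genes, 4 of 7 known targets and 14 of 16 genes of the destruction complex were positive. Wls, the carrier that brings Wnt proteins to the cell surface, was abundant at 311.8 and 279.2 in WT against 261.6 and 284.3 CPM in Dnmt3l-KO, and Porcn, which attaches their lipid, was low at between 1.87 and 2.08 CPM. For Porcn both Dnmt3l-KO libraries lay just above WT, by less than the error (log2 fold change 0.09 ± 0.25, SE), and for Wls the genotypes overlapped. Ctnnb1, which encodes beta-catenin, had 740.6 and 736.5 in WT against 631.7 and 738.9 CPM in Dnmt3l-KO.

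The 12 genes listed for the nuclear step of the pathway all had positive log2 fold changes, with a median of 0.27. This list is mixed: Tle1, Tle2, Tle3, Tle4, Aes and Ctnnbip1 are repressors or inhibitors of the step. A shared sign in it is therefore no direction of the pathway. In 8 of the 12 both Dnmt3l-KO libraries lay above both WT libraries, as in 16.2% of all genes. This was not particular to the nuclear list: 10 of the 16 genes of beta-catenin and its destruction complex did so too. Of all 66 other pathway genes tested, 24 lay above in this way and 3 below, where 16.5% of all genes lay below. Of the 6 genes at an unadjusted p under 0.05, 4 were in the nuclear list. Tcf7l1, the Tcf factor best known as a repressor, had 5.54 and 5.42 in WT against 7.73 and 9.07 CPM in Dnmt3l-KO, and the log2 fold change was 0.62 ± 0.16 (SE; edgeR, unadjusted p = 0.0132, adjusted p = 0.999). Bcl9, an adaptor that ties beta-catenin to Pygopus proteins, had 17.6 and 16.4 in WT against 20.7 and 27.4 CPM in Dnmt3l-KO (log2 fold change 0.50 ± 0.16, SE), and its relative Bcl9l had 58.2 and 65.2 in WT against 74.2 and 96.0 CPM in Dnmt3l-KO (0.46 ± 0.15, SE). Tcf7l2, a widely expressed Tcf factor, had 19.5 and 22.0 in WT against 24.2 and 28.5 CPM in Dnmt3l-KO (0.34 ± 0.13, SE). None of the 4 passed in edgeR (adjusted p = 0.999 each). All 12 were positive under each other scaling, filter and tool tried with all libraries. In limma on log2 FPKM, 59.7% (pseudocount 1) and 59.17% (pseudocount 0.1) of all genes were positive too. With WT replicate 1 left out 10 were positive, and with Dnmt3l-KO replicate 1 left out 11 were. Fewer than in edgeR reached an unadjusted p under 0.05: 3 in DESeq2's Wald test, 3 in limma-voom, and 1 and 2 in limma on log2 FPKM (pseudocounts 1 and 0.1). The genes come from the same 4 libraries, so counting them tests nothing about the group.

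**Figure D4:**
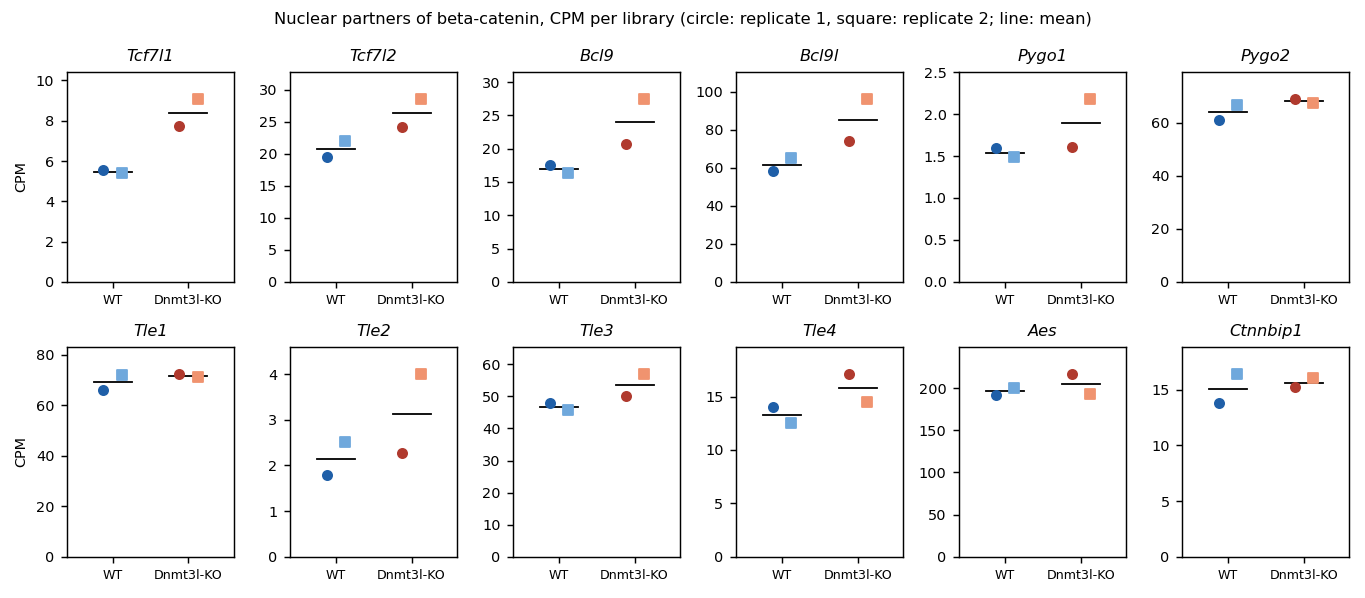
CPM per library for the 12 genes listed for the nuclear step, activators and repressors alike, with the mean of each genotype as a line. Each panel starts at 0. In 8 of the panels both Dnmt3l-KO points lie above both WT points, and in Tcf7l1 the WT libraries sit at 5.54 and 5.42 CPM and the Dnmt3l-KO libraries at 7.73 and 9.07 CPM.

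The remaining genes at an unadjusted p under 0.05 were Dvl3, a cytoplasmic carrier of the signal from Frizzled, with 31.4 and 27.5 in WT against 36.0 and 39.1 CPM in Dnmt3l-KO, and Myc, a growth regulator known as a target of the pathway, with 29.7 and 28.8 in WT against 47.3 and 34.8 CPM in Dnmt3l-KO (edgeR, unadjusted p = 0.0281 and 0.0319, adjusted p = 0.999 for both). The genotypes overlapped in several feedback genes of the pathway. Lgr5, an R-spondin receptor, had 63 and 75 in WT against 43 and 124 counts in Dnmt3l-KO. Rnf43, a ligase that removes Frizzled receptors from the cell surface, had 1.68 and 3.02 in WT against 1.22 and 3.56 CPM in Dnmt3l-KO. Notum, an enzyme that inactivates Wnt proteins, had 0.679 and 3.31 in WT against 1.22 and 3.01 CPM in Dnmt3l-KO. As in Axin2, replicate 2 was the higher library of each genotype in all 3, which were named after their values were seen. Other genes of the same lists went the other way, with replicate 1 higher in each genotype. Znrf3 had 16.4 and 15.0 in WT against 16.9 and 15.3 CPM in Dnmt3l-KO, and Nkd2 had 6.77 and 6.71 in WT against 5.35 and 4.69 CPM in Dnmt3l-KO. Ccnd1, a cyclin known as a target, had 374 and 445 in WT against 466 and 495 CPM in Dnmt3l-KO, with separate genotypes and a log2 fold change of 0.23 ± 0.13 (SE; edgeR, unadjusted p = 0.128, adjusted p = 0.999). Sp5, Cdx1 and T, targets in early embryos and gut, had 0 counts in all 4 libraries.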

How the data were processed

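Per the file headers, the authors deposited 116415 RefSeq transcripts, each with its estimated count and its FPKM per library. Their own comparison per transcript was deposited beside these, as a mean signal over the libraries, a log2 fold change with standard error, a score (the test statistic) and a raw and adjusted p-value. The submitters' processing notes name mm10, DESeq2 1.8.0, eXpress 1.4.1, Cufflinks 2.2.1 and TopHat2 2.0.12, with roles not given in the sources used here. Libraries were depleted of ribosomal RNA, randomly primed and amplified over 12 PCR cycles, per the labels' protocols. The deposited estimated counts were whole numbers and were summed per symbol, as were the FPKM values.

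The genotypes were compared with edgeR 4.0.16 in R 4.3.3 (robust quasi-likelihood test, TMM scaling, expression filter, Benjamini-Hochberg adjustment over 14760 genes, threshold 0.05). CPM uses TMM library sizes. Standard errors come from the F statistic and 95% intervals from its degrees of freedom. The fit was tested on simulated data. The floor of 3 counts per library came to 0.0601 to 0.0719 CPM and covers counting error only. Alternatives were other scalings and filters, DESeq2 1.42.0, limma 3.58.1, limma on log2 FPKM (pseudocounts 1 and 0.1), a fit on transcripts, a replicate block, and each library left out in turn. All members were named; full statistics went to those at an unadjusted p under 0.05, the 5 with the highest FPKM, the 2 lowest p of each class and those with separate groups and an absolute log2 fold change above 0.5. Of other pathway genes the 5 with the lowest p were named; further genes were named after their values were seen. The members and lists were chosen with earlier results of these data known.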

Additional observations from a re-analysis of the deposited data

How the results depend on the processing

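The number of Wnt members called was 0 under every alternative tried, with the smallest adjusted p for any member at 0.254 (edgeR, Dkk3, without Dnmt3l-KO replicate 2). With 2 libraries per genotype and a spread as wide as that of Axin2, changes of several fold could not be told from no change. The count of genes called over all genes was 3; it was 31 with DESeq2's Wald test, 6 in limma on log2(FPKM + 1) and also 6 on log2(FPKM + 0.1), 8 with no filter on low counts, and 1 with transcripts as features, and it ranged from 2 to 7 with each library left out (7 without Dnmt3l-KO replicate 1, 5 without Dnmt3l-KO replicate 2). With the replicate block it was 4, and 0 members were called. The same-numbered libraries correlated at 0.0999 in their deviations from the genotype means. With 2 libraries per genotype this value cannot tell whether the libraries were paired. The numbers were not taken to pair them, because the labels do not state it. Where a library was left out, the lone library of its genotype was assumed to vary like the other genotype. The median log2 fold change of the members lay between -0.013 and 0.046 in the settings that keep all libraries, and between -0.092 and 0.10 with a library left out (Dnmt3l-KO replicate 2 and WT replicate 2 in that order). Of 316 member values under settings that keep all libraries, 12 had the opposite sign, all from members within 0.2 of 0. With libraries left out as well, 9 of the 32 members kept their sign throughout. The largest shift of the median over all genes from its main value was 0.033, on log2(FPKM + 0.1) values. The low counts of 12 members left them without a test.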
